A study of Mus musculus with 206 samples.

Results

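The 3793 regions described here carried H3K27ac in neurons of the prefrontal cortex (PFC) and the hippocampus and were missing from the consensus list of the hypothalamus. H3K27ac, acetylated lysine on the tail of histone H3, accompanies promoters and enhancers in use. The regions were chosen by position from the deposited consensus lists. A region of the PFC list became a member when it shared at least 1 bp with a region of the hippocampus list and no base with a region of the hypothalamus list. Members made up 20.76% of the 18272 PFC regions. Overlap with the striatum list played no part in the choice. Of the remaining PFC regions, 6344 overlapped both other lists, 2044 overlapped the hypothalamus list alone and 6091 overlapped neither. Presence in PFC and hippocampus and scarcity in the hypothalamus are therefore the rule itself, and their values are given as a description without a test.

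Neuronal nuclei were sorted by NeuN, and each library came from about 10000 nuclei of 1 brain region of 1 animal. The mice were wild type C57BL/6NTac of both sexes. Their dams carried minipumps with morphine sulfate (MOR) at 10 mg/kg per day or with saline (SAL), and newborns moved to drug-naive foster dams. From postnatal day 1 to 14 the pups received 2 subcutaneous injections per day of 10 mg/kg morphine or of saline, and withdrawal followed without further treatment. As adults they were given lipopolysaccharide (LPS), a bacterial endotoxin that provokes inflammation, or saline, and tissue punches were taken 2 h later. Group names give the perinatal treatment first, and pumps, fostering and injections were common to all 4 of them. After the exclusions stated with the methods, SAL-SAL comprised 8 PFC, 11 hippocampus, 8 hypothalamus and 10 striatum libraries, MOR-SAL 9, 11, 12 and 7, SAL-LPS 11, 12, 11 and 13, and MOR-LPS 14, 10, 10 and 15. PFC libraries were built with another kit than the rest, so kit and PFC cannot be told apart. In bulk nuclei, a mark carried by fewer neurons and a weaker mark in every neuron cannot be told apart either.

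Lists of peaks differed in length, with 11306 to 143527 peaks for PFC, 13021 to 143124 for hippocampus, 20170 to 135368 for hypothalamus and 10811 to 109977 for striatum libraries. Read counts per region were not used here, so the depth behind a peak is known only as the length of its list. Each PFC region was called present in a library when a peak overlapped it. Each region was also ranked within its library from 0 to 100 by its strongest peak. Regions without a peak shared 1 tied rank, the lowest of their library. The mean rank over all PFC regions is thus 50 in every library. The tied rank is higher the more regions lack a peak. It ran from 0.01916 in PFC SAL-LPS to 49.78 in PFC MOR-SAL. It reached 39.27 in hypothalamus SAL-SAL and 40.5 in striatum SAL-LPS. A region without a peak can thus rank above a region with a peak in another library. Differences in rank therefore depend partly on how many regions lack a peak. A rank is a position relative to other regions and not an amount of acetylation.

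Several libraries stood apart and touch the results. In the hypothalamus, 6 of 41 libraries held 14.92% to 22.96% of the members among their 10000 strongest peaks, against 4.64% to 9.069% in the other 35. These 6 were 4 of 10 MOR-LPS, 1 of 11 SAL-LPS and 1 of 8 SAL-SAL libraries, with 0 of 12 in MOR-SAL. A peak among the 10000 strongest lay at 50% or more of 12 oligodendrocyte marker promoters, genes of the myelin-forming cells that NeuN sorting should remove, in 5 of 15 MOR-LPS and 1 of 10 SAL-SAL striatum libraries, in 1 SAL-SAL and 1 MOR-LPS PFC library, and in 1 SAL-SAL hypothalamus library. The PFC MOR-SAL male library 13-1 had peaks at 0.3427% of the members, and its 10000 strongest peaks lay at 0.394% of all PFC regions, so its list is not shown to hold H3K27ac of the PFC. Results that rest on these libraries are given with and without them.

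As background, promoters are active in many cell types, while enhancers, often in introns or between genes, tend to be used by particular kinds of neuron. The neocortex and hippocampus both arise from the dorsal telencephalon, where transcription factors such as Tbr1 and the NeuroD family specify glutamatergic projection neurons. The striatum arises from the ventral telencephalon and consists mainly of GABAergic projection neurons, and the hypothalamus belongs to the diencephalon and holds many kinds of peptide-releasing neuron.

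Sequences of 6 members are printed because these members were strong in PFC and hippocampus and had a peak in at most 4 of 41 hypothalamus libraries. Each run covers 300 bases around the median PFC peak summit, on the plus strand of mm10, 5′ to 3′. Capitals mark CAGATG, read as CATCTG from the opposite strand, which is an E-box variant known to be bound by NeuroD and neurogenin factors, and CAGCTG, an E-box that reads alike on both strands. The Slit3 run lies in an intron of the gene at chr11:35178370-35178669. The Adcy9 run lies between genes at chr16:4469561-4469860, and the Mex3b run likewise at chr7:82923506-82923805. The Lrrc10b run lies at that gene's promoter at chr19:10459561-10459860, the Crym run in the promoter region of that gene at chr7:120201284-120201583, and the Tbr1 run at chr2:61805435-61805734 in the region that covers the Tbr1 start site. The Crym and Tbr1 runs hold neither sequence.
Slit3: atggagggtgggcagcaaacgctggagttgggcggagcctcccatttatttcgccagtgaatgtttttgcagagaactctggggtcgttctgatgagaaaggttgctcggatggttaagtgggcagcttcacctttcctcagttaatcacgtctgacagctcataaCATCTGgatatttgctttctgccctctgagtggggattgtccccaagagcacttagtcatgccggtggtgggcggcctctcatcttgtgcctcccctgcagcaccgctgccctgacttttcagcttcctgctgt
Adcy9: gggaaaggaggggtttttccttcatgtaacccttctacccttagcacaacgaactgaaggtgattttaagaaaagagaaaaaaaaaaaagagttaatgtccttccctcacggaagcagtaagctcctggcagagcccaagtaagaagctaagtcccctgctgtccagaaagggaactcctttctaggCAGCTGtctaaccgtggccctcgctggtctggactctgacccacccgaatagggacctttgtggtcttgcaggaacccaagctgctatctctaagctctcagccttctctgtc
Mex3b: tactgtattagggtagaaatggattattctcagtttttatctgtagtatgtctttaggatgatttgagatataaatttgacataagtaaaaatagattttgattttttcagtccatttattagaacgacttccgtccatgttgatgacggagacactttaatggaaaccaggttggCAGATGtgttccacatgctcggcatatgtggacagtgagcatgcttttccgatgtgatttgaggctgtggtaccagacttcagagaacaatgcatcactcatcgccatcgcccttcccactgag
Lrrc10b: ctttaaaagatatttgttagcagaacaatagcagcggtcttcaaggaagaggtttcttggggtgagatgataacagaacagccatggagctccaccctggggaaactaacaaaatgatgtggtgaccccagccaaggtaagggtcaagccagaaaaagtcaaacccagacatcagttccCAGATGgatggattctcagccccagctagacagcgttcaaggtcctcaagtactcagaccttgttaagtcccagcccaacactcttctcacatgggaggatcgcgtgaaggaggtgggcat
Crym: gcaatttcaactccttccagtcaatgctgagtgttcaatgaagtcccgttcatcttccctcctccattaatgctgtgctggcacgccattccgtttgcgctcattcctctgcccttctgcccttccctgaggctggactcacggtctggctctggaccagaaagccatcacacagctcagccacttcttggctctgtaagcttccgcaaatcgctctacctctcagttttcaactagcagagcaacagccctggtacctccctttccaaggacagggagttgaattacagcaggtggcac
Tbr1: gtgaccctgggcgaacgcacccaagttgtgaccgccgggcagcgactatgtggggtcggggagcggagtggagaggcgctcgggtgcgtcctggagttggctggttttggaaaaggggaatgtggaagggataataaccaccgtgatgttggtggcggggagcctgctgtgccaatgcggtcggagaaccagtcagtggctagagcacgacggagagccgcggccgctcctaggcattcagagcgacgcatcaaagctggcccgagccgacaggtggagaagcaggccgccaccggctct

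The Slit3 member (chr11:35176131-35182224), in an intron of a gene for a secreted axon guidance ligand, had a peak in 41 of 42 PFC, 40 of 44 hippocampus, 36 of 45 striatum and 4 of 41 hypothalamus libraries. Its rank ran from 20.84 over a median of 68.73 to 97.1 in PFC and from 14.49 over 76.53 to 98.97 in the hippocampus. In the hypothalamus it ran from 13.42 over 24.37 to 65.44, the median being that of a region without a peak, and in the striatum from 16.79 over 62.14 to 94.17. High ranks were thus found in all 3 telencephalic regions, and the ranges overlapped. The Adcy9 member (chr16:4469093-4471811), 48595 bp from the start of an adenylyl cyclase gene, had a peak in 41 PFC, 39 hippocampus, 34 striatum and 4 hypothalamus libraries. The Mex3b member (chr7:82920971-82924479), 53638 bp from a gene for an RNA-binding protein, was less common in the striatum, with a peak in 18 of 45 libraries against 36 PFC and 40 hippocampus libraries. At Lrrc10b (chr19:10457659-10460289) a peak was present in 37 PFC, 37 hippocampus and 38 striatum libraries and in 1 of 41 hypothalamus libraries. At Crym (chr7:120195135-120203039), which encodes a thyroid hormone-binding protein, the counts were 39, 32, 16 and 4 for PFC, hippocampus, striatum and hypothalamus.

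Members lay mostly away from promoters. A start site of a protein-coding gene lay within 1 kb of 720 members, which is 18.98% of them, against 31.36% of all PFC regions, 39.96% of those shared by all 3 lists, 46.48% of those shared with the hypothalamus alone and 25.04% of those shared with neither. By the median PFC peak summit, 2284 members (60.22%) lay in introns, 1259 between genes and 250 in exons. Their median width was 3691 bp, within a range of 861 to 28210 bp, against 3478 bp over all PFC regions, and together they covered 16.32 Mb. The median GC content of the members was 46.9%, against 47.9% for all PFC regions, and 33 members lay on the X chromosome. No start site of a protein-coding gene lay within 100 kb of 830 members, and the other members were assigned to 1858 genes by the nearest start site, which does not show that the gene is the target. Of those genes, 1261 had 1 member and 350 had 2.

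Most members lay away from hypothalamus regions. The median distance from a member to the nearest hypothalamus region was 27360 bp, and 743 members had such a region within 5 kb. A hippocampus region contained 2089 members completely. Members away from promoters belonged to 1431 genes, and for 516 of these genes (36.06%) the PFC list held a promoter region that was also in the hypothalamus list. For 651 of the genes the PFC list held no promoter region at all.

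The limits of the rule were close at a few places. The member with the smallest overlap with a hippocampus region was in an intron of Zfyve28, at 6 bp, with a peak in 36.36% of hippocampus libraries, followed by Mgat1 at 7 bp and an intron of Csmd1 at 24 bp. Just outside, a region near Dact2 missed a hippocampus region by 4 bp and had a peak in 65.91% of hippocampus libraries, and regions at Calm3 and Adamtsl1 missed by 15 and 22 bp. The member nearest to a hypothalamus region was in Rbfox3, 4 bp away, with a peak in 58.54% of hypothalamus libraries, and members in introns of Kctd16 and Atxn1 were 10 and 18 bp away. Regions near Ddx20, Syt4 and Gria2 shared 2, 4 and 7 bp with a hypothalamus region and were no members.

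PFC libraries had a peak at 81.41% ± 19.29 of the members (mean and SD over 42 libraries), and at 83.38% ± 14.6 without the library 13-1 (n = 41). The mean was 76.46% ± 21.74 for the 44 hippocampus libraries, 59.47% ± 19.52 for the 45 striatum libraries and 38.01% ± 18.15 for the 41 hypothalamus libraries. Over all PFC regions the corresponding means were 83.8%, 64.66%, 69.43% and 54.39%. With each list cut to its 10000 strongest peaks, the members' means were 28.8%, 28.56%, 20.17% and 8.526% in the same order. Without the library 13-1 the PFC mean was 29.5% on this measure. Absence from the hypothalamus list thus did not mean absence of peaks. Mean ranks of the members were 45.74 (45.63 without that library), 56.19, 42.16 and 39.02. The members ranked above the mean of 50 in the hippocampus only, and the order of the brain regions from high to low was hippocampus, PFC, striatum and hypothalamus on that scale.

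**Figure D1:**
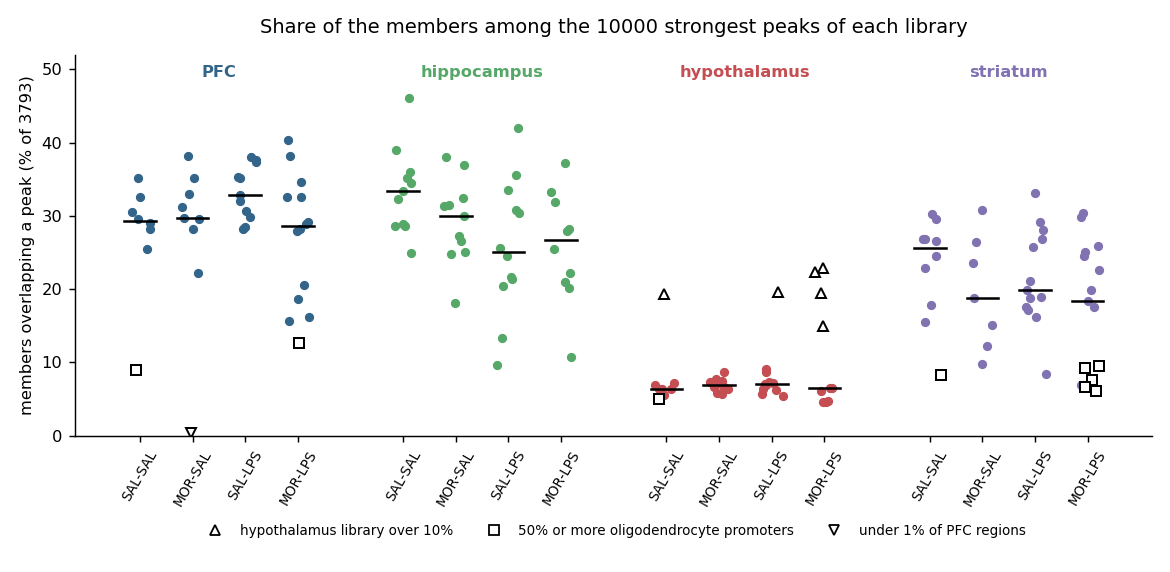
Percentage of the 3793 members that overlap the 10000 strongest peaks of a library (vertical axis), with 1 point per library, by brain region and treatment group (horizontal axis), lines at group medians, and open triangles, squares and an inverted triangle for the libraries that stand apart. Most hypothalamus libraries sit between 4.64% and 9.069% with 6 triangles at 14.92% to 22.96%, and the striatum squares lie among the lowest striatum libraries.

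The spread between libraries was wide in every brain region. The share of members with a peak ran from 0.3427% over a median of 86.54% to 100% in PFC (from 51.2% over 87.66% without the library 13-1) and from 20.22% over 83.17% to 99.31% in the hippocampus. It ran from 12.39% over 35.12% to 94.36% in the hypothalamus and from 9.228% over 65.52% to 88.72% in the striatum. Single libraries of the 4 brain regions therefore overlapped on this measure. On the 10000 strongest peaks, the hippocampus ran from 9.702% to 46.16%, so that all 44 hippocampus libraries lay above the 35 usual hypothalamus libraries, while its lowest libraries lay under the 6 that stood apart.

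Per member, the median share of libraries with a peak was 85.71% in PFC, 79.55% in the hippocampus, 64.44% in the striatum and 36.59% in the hypothalamus. A peak was present in more than 50% of libraries for 3694 members in PFC, 3563 in the hippocampus, 2625 in the striatum and 1164 in the hypothalamus. In the hypothalamus 4 members had a peak in no library, 319 in at most 10% of libraries, 928 in 10% to 25% and 1378 in 25% to 50%. The 1164 members above 50% were at promoters in 35.82% of cases, against 7.524% of the 319 members with a peak in some but at most 10% of libraries. They overlapped a striatum region in 98.02% of cases, against 71.16%.

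**Figure D2:**
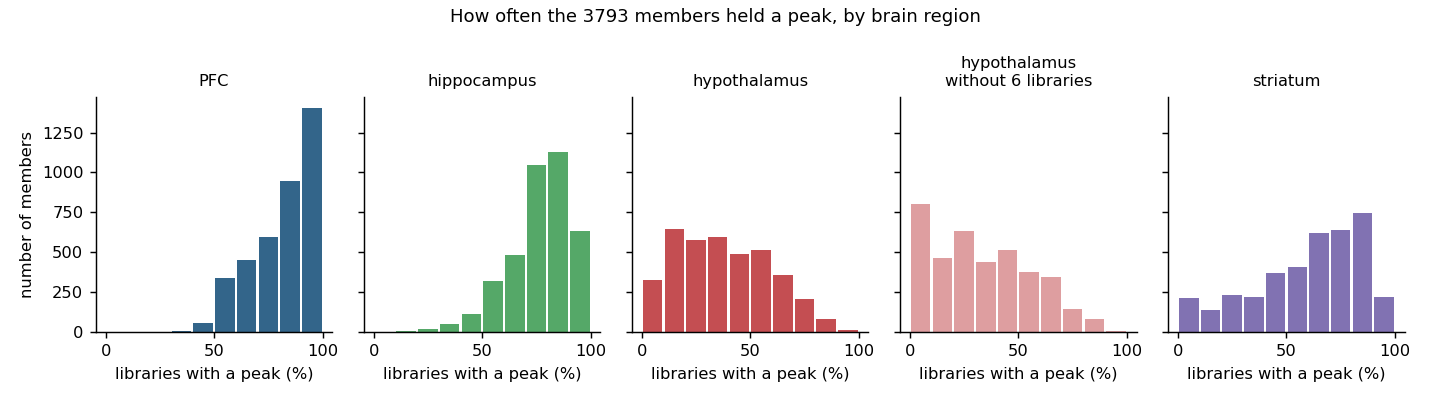
Number of members (vertical axis) by the percentage of libraries in which they overlap a peak (horizontal axis, bins of 10 points) for PFC, hippocampus, hypothalamus, hypothalamus without the 6 libraries that stand apart, and striatum. PFC and hippocampus pile up at the right, the hypothalamus spreads from 0% to 97.56% and moves further left without the 6 libraries.

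The 6 hypothalamus libraries carried the members more often than the rest. A peak overlapped 71.08% ± 15.3 of the members in these 6 (SD, range 47.19% to 94.36%) and 32.34% ± 11.28 in the other 35 (12.39% to 51.67%). Since the 6 were set apart by the members themselves, no test was made. For regions shared by all 3 lists the means were 87.66% and 78.54%, for those shared with the hypothalamus alone 70.16% and 73.35%, and for those shared with neither 41.96% and 30.09%. Peaks among the 10000 strongest lay at 10.71% to 17.86% of the promoters of 28 cortical transcription factor genes in the 6 libraries and at 0% to 17.86% in the others. At promoters of 28 hypothalamus and thalamus genes the ranges were 0% to 3.571% and 0% to 14.29%, and at oligodendrocyte promoters 0% to 8.333% and 0% to 50%. The number of members without a peak in any hypothalamus library rose from 4 to 241 when the 6 were left out, and 945 members still had a peak in more than 50% of the other 35.

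Of the members, 3429 (90.4%) overlapped a striatum region, against 95.74% of all PFC regions, 99.73% of those shared by all 3 lists and 93.53% of those shared with neither. The striatum list was the longest with 60013 regions, and the hippocampus and hypothalamus lists held 16201 and 13788. The 364 members without a striatum region differed in their values from the others. They had a peak in 75.82% of hippocampus libraries on average, as the members with a striatum region did (76.53%), but in 59.55% of PFC libraries (83.73%), 21.59% of hypothalamus libraries (39.75%) and 11.61% of striatum libraries (64.55%). Their mean rank was 29 in PFC and 56.86 in the hippocampus, against 47.51 and 56.12 for the others. Only 27 of the 364, 7.418%, were at promoters, against 20.21%. In the 6 hypothalamus libraries they had a peak in 64.38% of cases and in the other 35 in 14.25%.

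The members highest in the striatum were at Apod, the gene of a lipid-binding secreted lipoprotein (45 of 45 striatum libraries, mean rank 92.38 ± 8.512), in an intron of the glutamate receptor gene Grm7 (chr6:111170091-111176656, 44 of 45), and near Ppp2r2a, Ddrgk1 and Atp23. The Apod member was present in 41 of 42 PFC, 39 of 44 hippocampus and 21 of 41 hypothalamus libraries. The Ddrgk1 member ranked 95.79 ± 8.306 in PFC and 90.76 ± 14.32 in the hippocampus. In the striatum 17 members had a peak in 0 of 45 libraries and so shared the lowest rank. Of these 17, 5 are named, which rank no lower than the others. They were a pair of members in introns of Utp4, one at chr8:101801578-101804825 and one at chr3:80531281-80534284 with no gene within 100 kb, and the distal Tbr1 member at chr2:61815665-61818845. Hippocampus libraries held these 5 in 28 to 41 of 44 cases.

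Some genes held many members. Celf2, which encodes an RNA-binding splicing regulator, had the most, with 28 of its 49 PFC regions spread from position 6663911 to 7387076 of chromosome 2 and 206.1 kb covered. Between 54.76% and 97.62% of PFC libraries, 47.73% and 97.73% of hippocampus libraries and 7.317% and 78.05% of hypothalamus libraries had a peak at them. Kalrn, a guanine nucleotide exchange factor of dendritic spines, had 14 of 28 regions as members and Pde2a, a cyclic nucleotide phosphodiesterase, 13 of 15. The median Pde2a member had a peak in 88.1% of PFC, 70.45% of hippocampus, 73.33% of striatum and 19.51% of hypothalamus libraries. Anks1b, a postsynaptic protein gene, had 12 of 42, Erc2, an active zone scaffold gene, 9 of 13, the splicing factor gene Rbfox1 9 of 26, the transcription factor gene Bcl11a 8 of 10, the phosphatase and actin regulator gene Phactr1 8 of 26, 2010300C02Rik 7 of 9 and the adhesion receptor gene Adgrd1 7 of 8. Phactr1 members ranked highest of these in PFC, at a mean of 70.1, against 37.47 in the hypothalamus.

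Gene lists differed in how many of their PFC regions were members. Over all 15049 PFC regions with a gene within 100 kb, 2963 (19.69%) were members, and the lists are given beside that share without a test. Cortical projection neuron transcription factors had the highest share, 36 of 70 regions (51.43%) at 12 genes. Calcium and plasticity signalling genes had 66 of 159 (41.51%), voltage-gated channel genes 38 of 119 (31.93%), immediate early genes 13 of 45 (28.89%), hippocampal neuron genes 8 of 30 (26.67%) and glutamatergic synapse genes 48 of 182 (26.37%). Axon guidance genes had 13 of 55 (23.64%), oligodendrocyte markers 4 of 19 (21.05%, all at Mbp) and housekeeping genes 3 of 15 (20%, all at Ywhaz). Astrocyte markers had 1 of 8 and neuron markers 7 of 61 (11.48%). Striatal projection neuron genes had 13 of 121 (10.74%), and 94 of these 121 regions were shared with neither hippocampus nor hypothalamus. Opioid system genes had 4 of 68 (5.882%) and GABAergic interneuron genes 1 of 19. Hypothalamus and thalamus genes had 0 of 7 and NF-kB and inflammation genes 0 of 10. Microglia and endothelial markers had no PFC region.

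**Figure D3:**
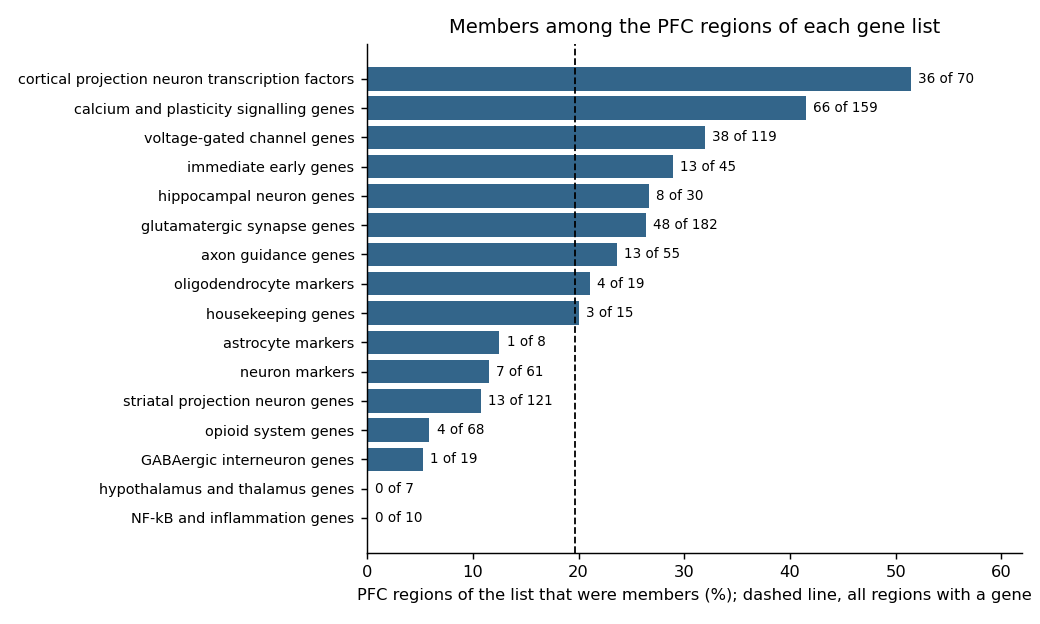
Percentage of the PFC regions of each gene list that were members (horizontal axis; bars, with the counts printed beside them), with a dashed line at the 19.69% of all PFC regions that have a gene within 100 kb. Cortical transcription factor genes are at 51.43% and calcium and plasticity signalling genes at 41.51%, while opioid, GABAergic, hypothalamus and NF-kB lists lie under 6%.

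At the cortical transcription factor genes, whole loci were members in several cases. All 4 regions of Tbr1, a T-box factor of glutamatergic cortical neurons, all 3 of Sox5 and the single regions of Neurod6 and Zbtb18 were members. Bcl11a had 8 of 10, Bcl11b 7 of 13, Neurod2 2 of 3, Mef2c 3 of 7, Lmo3 2 of 5, Lmo4 2 of 5 and Fezf2 1 of 2.

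Tbr1 members were frequent in PFC and hippocampus and rare in the other 2 brain regions. The Tbr1 promoter member (chr2:61801834-61808636) had a peak in 31 of 42 PFC, 40 of 44 hippocampus, 1 of 45 striatum and 4 of 41 hypothalamus libraries, all 4 among the 6. Its mean rank was 50.82 ± 34.28 in PFC, 73.29 ± 19.88 in the hippocampus, 15.56 ± 8.414 in the striatum and 28.23 ± 18.21 in the hypothalamus. The other 3 Tbr1 members had a peak in 20 to 29 PFC libraries, 30 to 35 hippocampus libraries and 0 striatum libraries, and in 2 or 3 hypothalamus libraries, again all among the 6. A member 7174 bp from Neurod2, a basic helix-loop-helix factor gene of projection neurons (chr11:98317500-98322474), was present in 25 PFC, 40 hippocampus, 1 striatum and 5 hypothalamus libraries, all 5 among the 6. The second Neurod2 member, 58952 bp away, was present in 37, 37, 24 and 7. The Neurod6 promoter member was present in 28 PFC, 34 hippocampus, 2 striatum and 6 hypothalamus libraries, 3 of these among the 6, and the Fezf2 promoter member in 25, 13, 1 and 3.

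Members at Bcl11b, Mef2c and Sox5 varied widely in the hypothalamus. Bcl11b, a zinc-finger factor of deep-layer cortical and of striatal neurons, had members in 38 to 41 of 42 PFC and 19 to 42 of 45 striatum libraries, and in 7 to 26 of 41 hypothalamus libraries. The large Bcl11b promoter member (chr12:107988015-108002691) was present in 26 of 41 hypothalamus libraries, 20 of them outside the 6. The widest Mef2c member (chr13:83645380-83668043), at a gene for a MADS-box factor of activity-dependent transcription, was present in 30 hypothalamus libraries, and the other Mef2c members were present in 10 and 12. The Sox5 promoter member (chr6:144200270-144210218) was present in 25 of the 35 usual hypothalamus libraries and in 3 of the 6, and the other Sox5 members were present in 4 and 16 of the 41. It had a peak in 32 PFC, 24 hippocampus and 13 striatum libraries and overlapped no striatum region. For these 3 promoter members, absence from the hypothalamus consensus list went with peaks in most hypothalamus libraries.

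**Figure D4:**
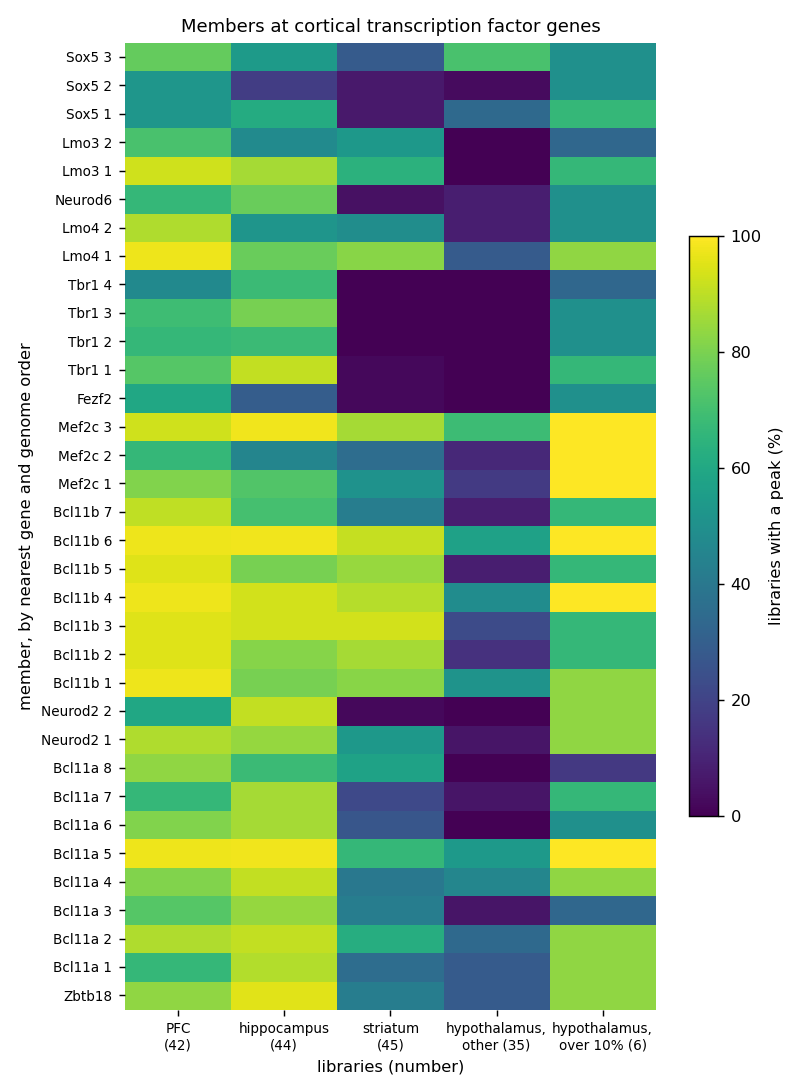
Percentage of libraries with a peak (colour) at members of the cortical transcription factor list (rows, those reported here, numbered along the chromosome within a gene) in PFC, hippocampus, striatum, the 35 usual hypothalamus libraries and the 6 that stand apart (columns). Tbr1 rows are dark in the striatum and in the 35 usual hypothalamus libraries, bright in PFC and hippocampus, and show signal in the 6.

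Among synaptic genes, members lay at receptors and at scaffolds. The AMPA receptor gene Gria1 had 6 of 9 regions as members and Gria3 2 of 2, and the obligatory NMDA receptor subunit gene Grin1 and the vesicular glutamate transporter gene Slc17a7 had 1 of 1 each. The Grin1 promoter member was present in 41 PFC, 34 hippocampus, 36 striatum and 25 hypothalamus libraries. Postsynaptic scaffold genes had 6 of 14 (Dlgap1), 4 of 5 (Dlgap2), 4 of 6 (Homer1) and 1 of 2 (Dlg4). The Dlgap2 member at chr8:14112988-14115911 was among the clearest, with a peak in 41 PFC and 35 hippocampus libraries against 3 of 41 hypothalamus libraries. Cacng3, a gene for an auxiliary AMPA receptor subunit, had 4 of 10, and 1 of them, in an intron of Prkcb, ranked 89.42 ± 11.45 in PFC and 82.23 ± 18.06 in the hippocampus. The adhesion gene Nrxn3 had 1 of 19.

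Calcium signalling genes held members at kinases, phosphodiesterases and exchange factors. The inositol trisphosphate kinase gene Itpka, the Ras exchange factor genes Rasgrf1 and Rasgrf2 and the calcium sensor gene Hpca had 2 of 2 each, the IP3 receptor gene Itpr1 5 of 14, the protein kinase C gene Prkcb 4 of 9 and the ryanodine receptor gene Ryr2 3 of 5. The Itpka promoter member (chr2:119742436-119744647) was present in 36 PFC, 30 hippocampus, 11 striatum and 2 hypothalamus libraries. A Camk2b member (chr11:6084211-6088885), near a gene of the calcium/calmodulin-dependent kinase, ranked 88.14 ± 11.25 in PFC and 92.78 ± 11.74 in the hippocampus and was present in 25 of 41 hypothalamus libraries.

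Among channel genes, all 4 regions of Kcnip2, an auxiliary subunit of A-type potassium channels, and the only region of Kcnh3 were members. Kcnj4 (inward rectifier) had 3 of 4, Kcnn2 (small-conductance calcium-activated channel) 3 of 4, Kcnh1 5 of 11, Kcnma1 5 of 23 and the calcium channel gene Cacna1e 4 of 12. The Kcnh3 promoter member was present in 40 PFC, 36 hippocampus, 33 striatum and 4 hypothalamus libraries. A member 35854 bp from the sodium channel gene Scn8a (chr15:100825296-100834004) ranked 89.2 ± 14.8 in the hippocampus and 66.61 ± 21.56 in PFC and was present in 9 hypothalamus libraries.

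Guidance genes had members at Slit3 (3 of 3), the ephrin receptor gene Epha4 (3 of 8), and 1 each at Epha7, Robo3, Sema3e, Sema4d, Sema7a, Plxna2 and Nrp2. Immediate early genes had members at Ier5 (4 of 4), Egr3 (2 of 4), Nr4a3 (2 of 3), and 1 each at Fosb, Fosl2, Egr1, Npas4 and Dusp1. The member covering the promoter of Egr1, an activity-induced zinc-finger factor (chr18:34860913-34867086), was present in 39 PFC, 33 hippocampus, 33 striatum and 5 hypothalamus libraries. A member near Fosb ranked 88.02 ± 11.24 in PFC and was present in 28 hypothalamus libraries. Of hippocampal neuron genes, Mpped1 had 5 of 6 and Zbtb20, a zinc-finger factor of hippocampal pyramidal neurons, 1 of 12, while 8 of the 12 Zbtb20 regions overlapped the hypothalamus list. In the striatal list, members were at Foxp1 (6 of 33), Pde10a (3 of 11), Ppp1r1b (2 of 4), Rgs9 and Meis2. The 4 opioid system members were at the receptor kinase gene Grk3, the regulators of G protein signalling Rgs9 and Rgs14, and the adenylyl cyclase gene Adcy1, and none was at an opioid receptor or peptide precursor. The Adcy1 member was present in 42 of 44 hippocampus and 21 of 42 PFC libraries and in 2 striatum and 5 hypothalamus libraries. The 1 GABAergic member covered the promoter of Gad1, the glutamate decarboxylase gene, with a peak in 42 PFC, 29 hippocampus, 38 striatum and 12 hypothalamus libraries.

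Members with a peak in at most 10% of hypothalamus libraries numbered 299 away from promoters and 24 at promoters. Those with the highest ranks in both PFC and hippocampus lay at or near Slit3, Adcy9, Ccdc149, 6030458C11Rik, Cog2, Bin3, Mex3b, Dlgap2, Tmem121b, Ska1 and March10, and at chr2:7952374-7959066 with no gene within 100 kb. Their mean ranks were 59.23 to 72.24 in PFC, 56.62 to 72.54 in the hippocampus, 27.57 to 58.44 in the striatum and 24.1 to 28.32 in the hypothalamus. The promoters chosen alike were those of Lrrc10b, Crym, Nemp1 (an inner nuclear membrane protein), Epop (a Polycomb-associated factor), Kcnh3, Tbr1, Cass4 (an adhesion scaffold) and Itpka. Their mean ranks were 46.13 to 66.63 in PFC, 46.96 to 73.29 in the hippocampus and 23.78 to 28.23 in the hypothalamus. The striatum split these promoters, from 15.56 at Tbr1 to 68.37 at Lrrc10b.

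Short sequence motifs were counted on both strands in 1000 bp around the median PFC summit. CAGATG was present in 62.25% of all members and 56.05% of all PFC regions. Away from promoters the shares were 65.12% of members, 61.13% of all PFC regions, 62.08% of those shared by all 3 lists and 57.81% of those shared with neither. The share among members away from promoters hardly varied with how often they had a peak in the hypothalamus, at 64.67% to 65.42% over the 4 bins above 0%. CAGCTG was present in 48.29% of such members, 48.26% of all, 53.28% of those shared by all 3 and 43.59% of those shared with neither. The T-box sequence AGGTGTGA was present in 5.142%, 4.426%, 4.018% and 4.403%, the homeodomain core TAATTA in 26.03%, 26.13%, 22.35% and 29.68%, and the RFX sequence GTTGCCATG in 2.571%, 3.756%, 6.46% and 2.103% in the same order. Away from promoters, members and all PFC regions held the AP-1 sequence TGAGTCA in 24.11% and 23.92%, the CRE sequence TGACGTCA in 1.432% and 1.236%, and the EGR sequence GCGTGGGCG in 0.3254% and 0.3589%. The shares were 4.784% and 5.351% for the MEF2 sequence CTAAAAATA, 7.68% and 8.628% for the ROR sequence TAGGTCA and 47.9% and 46.89% for the NFI sequence TTGGCA. They were 12.53% and 12.59% for the forkhead sequence TGTTTAC, 13.44% and 13.71% for the NKX2 sequence CACTTGA, 7.322% and 7.368% for the POU octamer ATGCAAAT and 15.62% and 15.45% for the TCF and LEF sequence ATCAAAG. A match to these letters is not shown to be a bound site.

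Treatment groups were compared within each brain region by limma on the ranks, with sex as a term and p-values adjusted by the Benjamini-Hochberg method over all PFC regions tested. The questions were the effect of perinatal morphine at baseline (MOR-SAL against SAL-SAL) and under LPS (MOR-LPS against SAL-LPS), the effect of LPS after saline (SAL-LPS against SAL-SAL) and after morphine (MOR-LPS against MOR-SAL), and the interaction. Comparisons share groups with each other, and the interaction uses all 4. Regions entered when at least 20% of the libraries had a peak, which kept 3793 members in PFC, 3785 in the hippocampus, 3441 in the striatum and 2824 in the hypothalamus. A region could pass this filter only through the groups in which it was frequent, and a call at such a region is partly set by the filter. Differences are in percentile points of rank with their standard error, and "rose" is kept for regions also called when all lists of a brain region were cut to the length of its shortest. No member assigned to a gene of the lists above was called in any of the 20 comparisons.

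In PFC and hippocampus no member was called in any of the 5 comparisons, against 0% of the 18272 PFC regions tested in PFC and 0% of the 16712 tested in the hippocampus. At an unadjusted p under 0.05 there were 93 members for MOR-SAL against SAL-SAL, 331 for MOR-LPS against SAL-LPS, 205 for SAL-LPS against SAL-SAL, 209 for MOR-LPS against MOR-SAL and 196 for the interaction in PFC. The hippocampus had 163, 272, 447, 193 and 200. These are 2.452% to 8.727% of the members in PFC and 4.306% to 11.81% in the hippocampus, against 2.955% to 11.33% and 4.625% to 12.82% of all regions tested. In lists of equal length limma also called 0 members in both. Without the PFC library 13-1, and without the oligodendrocyte-marked PFC libraries, the PFC counts were 0 in all 5 comparisons (limma). The median difference of the members was largest for SAL-LPS against SAL-SAL in the hippocampus, at -4.636, against -1.248 over all regions tested. Mean list length there was 58741.2 peaks in SAL-LPS and 96848 in SAL-SAL, and the median tied rank without a peak was 21.48 and 11.7. Whether the shift goes with list length was not tested.

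The members nearest to the threshold in these 2 brain regions are given as values. An intronic member of Mansc1 in PFC had a rank of 49.92 to 90.08 with a median of 72.86 in SAL-LPS and of 6.658 to 79.07 with a median of 30.73 in MOR-LPS, and the groups overlapped. The difference was -38.17 ± 9.05 (limma, adjusted p = 0.09158). An intronic member of Myt1l, a zinc-finger factor that maintains neuronal identity, ran from 29.33 over 55.93 to 85.62 in SAL-SAL and from 6.45 over 17.73 to 35.55 in SAL-LPS (difference -37.96 ± 8.114, limma adjusted p = 0.1381). With oligodendrocyte and astrocyte shares as terms this was the 1 member called in PFC (limma adjusted p = 0.01365). In the hippocampus a member in Snph, the gene of a protein that anchors mitochondria in axons, ran from 75.6 over 93.2 to 97.93 in SAL-SAL and from 34.28 over 68.59 to 94.54 in SAL-LPS. Its difference was -25.05 ± 6.078 (limma, adjusted p = 0.07808), and the groups overlapped. The Arpp19 promoter member, at a gene for a phosphatase inhibitor, differed by -41.29 ± 9.613 between MOR-LPS and SAL-LPS (limma, adjusted p = 0.2093).

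In the hypothalamus, 12 members ranked higher in MOR-LPS than in SAL-LPS and none lower (0.438% of the 14829 regions tested ranked higher and 0.303% lower, and 0.4249% of the members higher). For MOR-LPS against MOR-SAL 32 members ranked higher and none lower (0.641% of all regions tested ranked higher and 0.425% lower, and 1.133% of the members higher). Of the 32, 30 lay away from promoters, as did 3073 of all 3793 members. The interaction called 7 members, all positive (0.101% of all were called positive and 0.25% negative, and 0.2479% of the members positive). SAL-LPS against SAL-SAL called 3 members, all lower (0.0944% of all in either direction, 0.1062% of the members), and MOR-SAL against SAL-SAL called 1, lower (0.0135% of all, 0.03541% of the members). Unadjusted, 327, 415, 363, 270 and 242 members had a p under 0.05 in that order.

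The libraries that stood apart moved with these counts. The 6 were set apart by the share of the members among their strongest peaks, and MOR-LPS held 4 of them. Lower ranks of the members in MOR-LPS, and fewer calls, are therefore partly built in when the 6 are left out. Without the 6 limma called 0, 0, 0, 3 and 0 members in the same order. All 12 and all 32 members kept their sign without the 6, with median differences of 19.44 and 16 in place of 32.5 and 31.5 and adjusted p from 0.3735 to 0.6624 and from 0.512 to 0.8242. The median difference over all members tested turned from 2.158 to -3.064 for MOR-LPS against SAL-LPS, from 3.27 to -2.818 for MOR-LPS against MOR-SAL and from 5.959 to -1.347 for the interaction, while over all regions tested it went from 0.2712 to 0.575, from -0.1142 to 0.7379 and from -0.4489 to 0.4153. The share of 28 cortical transcription factor promoters among the 10000 strongest peaks averaged 14.88% in the 6 and 7.653% in the others. Microglia and endothelial markers were at 0% in every hypothalamus library. Whether the 6 libraries hold tissue of another brain region, through dissection or an exchange of samples, was not tested, and these cannot be told apart from a difference within the hypothalamus. The hypothalamus values of MOR-LPS, which hold 4 of the 6, therefore carry this limit. In lists of equal length 1, 7, 1, 0 and 0 members were called.

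The members called for MOR-LPS against SAL-LPS with the largest differences lay at Dtnb, Lamc1, Slc16a1, Sidt1 and Zbtb16. The member in an intron of Dtnb, a dystrophin-associated protein gene (chr12:3672731-3679466), ranked 71.84 ± 23.19 in MOR-LPS (SD, n = 10) and 30.05 ± 17.09 in SAL-LPS (n = 11), a difference of 41.16 ± 9.266 (limma, adjusted p = 0.02287). Without the 6 libraries it was 29.4 with an adjusted p of 0.375. The member in an intron of Lamc1, a laminin subunit gene (chr1:153264777-153267956), had a peak in all 10 MOR-LPS libraries, whose ranks ran from 40.42 over 70.65 to 93.81, and in 2 of 11 SAL-LPS libraries, from 12.4 over 27 to 62.79. The 4 MOR-LPS libraries that stood apart ran from 40.42 to 93.81 and the other 6 from 42.71 to 82.5. The difference was 36.84 ± 8.35 (limma, adjusted p = 0.02287), and without the 6 libraries 28.19 (adjusted p = 0.3735). Against MOR-SAL, where 1 of 12 libraries had a peak, it was 38.72 ± 8.344. In SAL-SAL 2 of 8 libraries had a peak. The Lamc1 member passed the 20% filter only with its MOR-LPS peaks counted, so both of its calls are partly set by the filter.

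The member 42411 bp from Sidt1, a gene for a transmembrane protein of the SID1 family (chr16:44236624-44240087), rose under both full and equal-length lists. Its rank ran from 17.89 over 72.52 to 99.01 in MOR-LPS, where 8 of 10 libraries had a peak, and from 17.77 over 27 to 58.56 in SAL-LPS, where 2 of 11 had one. A peak was present in 1 of 8 SAL-SAL and 1 of 12 MOR-SAL libraries. The Sidt1 member passed the 20% filter only with its MOR-LPS peaks counted, so its calls under both kinds of list are partly set by the filter. The 4 MOR-LPS libraries that stood apart ranked it from 79.64 to 99.01 and the other 6 from 17.89 to 76.4. The difference was 34.9 ± 8.247 against SAL-LPS (limma, adjusted p = 0.02449, and 0.02399 in lists of equal length) and 35.06 ± 8.242 against MOR-SAL, and without the 6 libraries 15.97 (adjusted p = 0.5187). Against MOR-SAL, members near or in Stum, Man1c1, Babam2, Slc25a44 and Sdccag8, of which all but Stum are named because their values were seen, also rose under both kinds of list, by 29.19 to 38.11. None of these was called without the 6 libraries.

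The 3 lower members for SAL-LPS against SAL-SAL were the only hypothalamus calls that held without the 6 libraries. The member at chr3:52773419-52778004, with no gene within 100 kb, differed by -45.18 ± 10.31 (limma, adjusted p = 0.03517), and by -45.52 without the 6 (adjusted p = 0.04035). The member at chr9:92729991-92733647, again with no gene within 100 kb, differed by -42.31 ± 9.367 (-37.39 without the 6, adjusted p = 0.04035). The member in an intron of Kcnmb4, a gene for an auxiliary subunit of large-conductance potassium channels (chr10:116434803-116438122), differed by -35.62 ± 8.464 (limma, adjusted p = 0.03744, and 0.03476 without the 6). None was called in lists of equal length, with limma adjusted p of 0.157, 0.1055 and 0.2936. The chr9 member was also the 1 called for MOR-SAL against SAL-SAL, at -44.87 ± 9.506 (limma, adjusted p = 0.03013, and 0.129 without the 6), and SAL-SAL libraries are common to both comparisons. Its interaction was 54.18 ± 12.98 (limma, adjusted p = 0.02867, 0.04423 in lists of equal length and 0.4924 without the 6).

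Gpr22, which encodes an orphan G protein-coupled receptor, had the interaction of smallest p. Its member (chr12:31728699-31731693, in an intron of Cog5) had a peak in 5 of 8 SAL-SAL libraries, 0 of 12 MOR-SAL, 0 of 11 SAL-LPS and 6 of 10 MOR-LPS libraries. Ranks ran from 18.04 over 58.4 to 78.15 in SAL-SAL, from 15.88 over 21.04 to 38.6 in MOR-SAL, from 12.4 over 24.81 to 30.63 in SAL-LPS and from 16.45 over 61.57 to 95.75 in MOR-LPS. SAL-SAL and MOR-LPS were thus split between libraries with and without a peak. All ranks of the other groups were those of regions without a peak. The interaction was 60.47 ± 12.15 (limma, adjusted p = 0.009741, and 0.09674 in lists of equal length), and without the 6 libraries, 4 of them with a Gpr22 peak in MOR-LPS, 38.35 (adjusted p = 0.3607).

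In the striatum, 25 of the 3441 members tested ranked higher in MOR-LPS than in SAL-LPS, beside 352 of all 17537 regions tested (2.01%). A further 23 members ranked lower, beside 82 of all regions (0.468%). The 48 were 1.395% of the members tested. Of the 25 higher members 13 were at promoters, and of the 23 lower members 1, beside 18.98% of all members. For MOR-LPS against MOR-SAL 19 members ranked higher (0.776% of all regions tested did) and 16 lower (0.285% of all did), with 11 and 1 at promoters. In both directions together 1.017% of the members tested were called. MOR-SAL against SAL-SAL called 1 member (0.0399% of all in either direction), the interaction called 1 (0.165% of all) and SAL-LPS against SAL-SAL called 0 (0% of all; limma, 207 members at an unadjusted p under 0.05 and 0 in lists of equal length).

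Oligodendrocyte promoters moved with these comparisons. Peaks among the 10000 strongest lay at 0% to 100% of the 12 promoters in striatum MOR-LPS (mean 31.11%), 0% to 33.33% in SAL-LPS, 0% to 8.333% in MOR-SAL and 0% to 100% in SAL-SAL. Without the 6 striatum libraries at 50% or more, limma called 0 members in every striatum comparison. All 48 and all 35 members kept their sign, with adjusted p from 0.2109 to 0.978 and from 0.05621 to 0.7271. The median difference over the members tested was -5.561 for MOR-LPS against SAL-LPS (-1.496 over all regions) and -2.787 without these libraries (-0.2237 over all). With oligodendrocyte and astrocyte shares as terms, limma called 0 and 2 members for these comparisons, and in lists of equal length 1 and 1. Microglia and endothelial markers were at 0% in every striatum library. How far the marked libraries account for the calls beyond this was not tested.

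The Nr1d1 promoter member (chr11:98774025-98776945), at the gene of the circadian nuclear receptor Rev-erb alpha, differed in most striatum comparisons. Its rank ran from 73.07 over 94.59 to 99.71 in SAL-SAL (10 of 10 libraries with a peak), from 27.7 over 46.32 to 86.53 in MOR-SAL (6 of 7), from 44.86 over 92.18 to 99.13 in SAL-LPS (13 of 13) and from 53.64 over 89.62 to 98.11 in MOR-LPS (15 of 15). MOR-SAL was the low group, with 2 libraries inside the range of SAL-SAL. MOR-SAL differed from SAL-SAL by -38.14 ± 7.392 (limma, adjusted p = 0.0141, 0.08134 in lists of equal length and 0.05542 without the marked libraries). MOR-LPS exceeded MOR-SAL by 36.06 ± 6.882 (limma, adjusted p = 0.002316, 0.02613 in lists of equal length and 0.05621 without them), so this member rose. The interaction was 47.15 ± 9.411 (limma, adjusted p = 0.01379, 0.08171 in lists of equal length and 0.1815 without the marked libraries). Without the marked libraries the 3 differences were -37.82, 35.84 and 46.78, and none of the 7 MOR-SAL libraries was marked. The 3 comparisons share the MOR-SAL libraries.

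**Figure D5:**
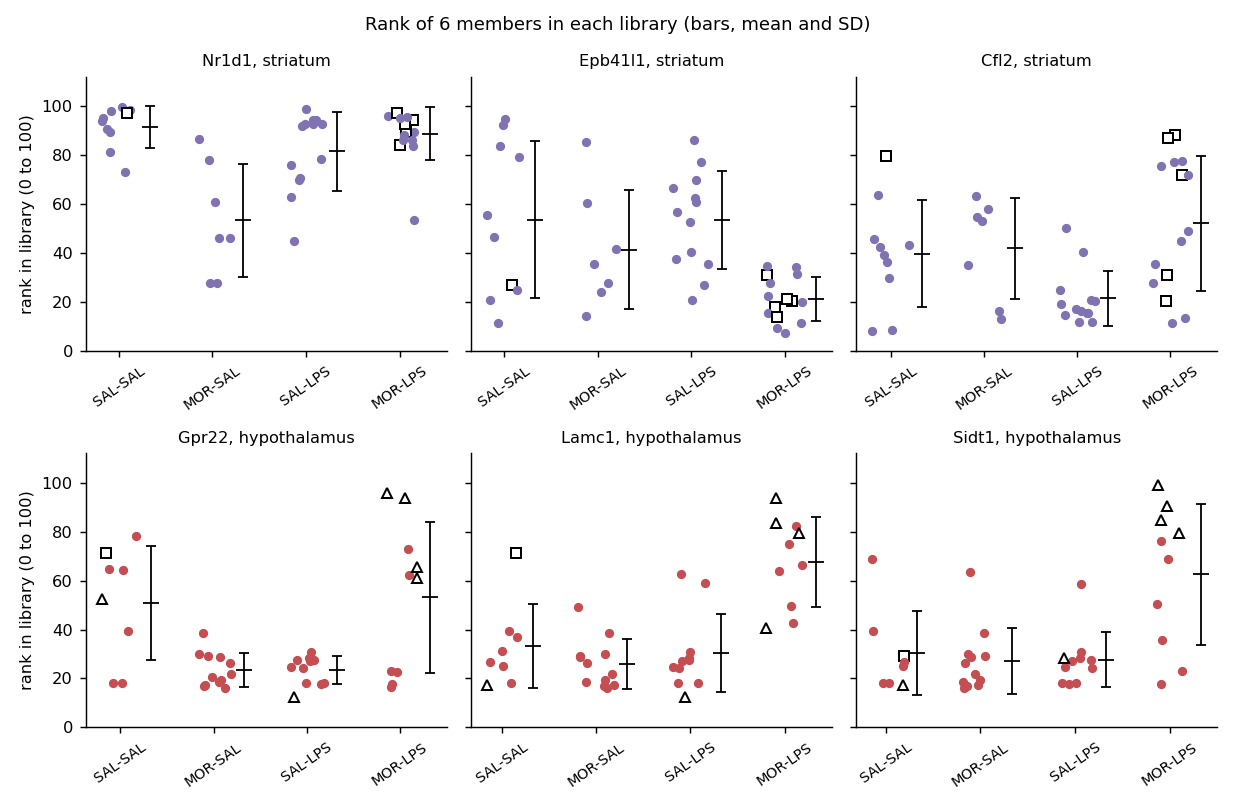
Rank from 0 to 100 (vertical axis) of 6 members in each library of the 4 treatment groups (horizontal axis), Nr1d1, Epb41l1 and Cfl2 in the striatum and Gpr22, Lamc1 and Sidt1 in the hypothalamus, with the mean and SD beside the points, squares for libraries at 50% or more of oligodendrocyte promoters and triangles for the hypothalamus libraries that stand apart. Nr1d1 is low in MOR-SAL, Epb41l1 is low throughout MOR-LPS, and at Sidt1 the triangles of MOR-LPS are the highest points.

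Among members higher in striatum MOR-LPS than SAL-LPS, the 5 largest differences were at promoters. At Cfl2, an actin-severing cofilin gene, ranks ran from 11.64 over 49.04 to 88.3 in MOR-LPS and from 11.71 over 17.13 to 50.43 in SAL-LPS. The difference was 36.45 ± 8.24 (limma, adjusted p = 0.0105, and 34.07 with 0.3591 without the marked libraries). Bcl7b, Mtg1, Crebl2 and Hnrnpa2b1 promoters followed at 34.9 to 35.61. The 1 member of this comparison that rose under both kinds of list lay in an intron of Pard3 (chr8:127191353-127197097), a cell polarity gene, and is named because its values were seen, at 32.78 ± 9.338 (limma, adjusted p = 0.0395, 0.03155 in lists of equal length and 0.8391 without the marked libraries).

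Of the 23 members lower in MOR-LPS than in SAL-LPS, 22 lay away from promoters, as did 3073 of all 3793 members. The intronic member of Epb41l1, a membrane cytoskeleton gene (chr2:156424570-156428704), ran from 7.2 over 20.42 to 34.65 in MOR-LPS, where 5 of 15 libraries had a peak, and from 20.87 over 57.01 to 86.48 in SAL-LPS, where 11 of 13 had one. Marked MOR-LPS libraries ran from 13.77 to 30.94 and the other MOR-LPS libraries from 7.2 to 34.65. The difference was -38.15 ± 8.36 (limma, adjusted p = 0.008495), and without the marked libraries -41.97 (adjusted p = 0.2109). Snd1, chr16:62406204-62409797, chr2:7952374-7959066 and an intron of Prkce (chr17:86362855-86366781) followed at -37.42 to -32.9. Against MOR-SAL, a member at chr10:10245817-10249918 ran from 18.17 over 30.94 to 65.05 in MOR-LPS and from 67.74 over 76.23 to 95.45 in MOR-SAL. These groups did not overlap, and the difference was -43.67 ± 10.73 (limma, adjusted p = 0.02755, and 0.4015 without the marked libraries). The largest higher differences against MOR-SAL were at the promoters of Cactin (47.59 ± 11.3), Cblb and Cdk4 and near Psmg4 and Map1lc3b.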

How the data were processed

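H3K27ac was mapped by low-input ChIP-seq in NeuN+ nuclei. Per the study's methods, the authors trimmed reads (Trim Galore 0.6.7), aligned them (Bowtie2 2.4.5), removed blacklisted stretches, called peaks per library (MACS2 2.2.7.1, q of 0.05) and built 1 consensus list per brain region from peaks in at least 50% of samples (DiffBind 3.10.1). They then kept regions with at least 15 reads in at least 80% of the samples of any 1 condition. A place in a consensus list therefore also depends on read counts, which were not used here. Coordinates are mm10, printed from 1. The peak lists as deposited give a score, a fold enrichment over background, and −log10 p and −log10 q per peak, as MACS2 writes them; the consensus lists give positions. Read counts and 32 input libraries were not used here, so depth is known only as list length, and a share of libraries covers no counting error.

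Of 174 peak lists, 1 PFC list with 4371 peaks was left out, and 1 hippocampus list identical to another was counted once (SAL-LPS males 1-2 and 5-2). One PFC MOR-LPS list whose peak names carry another animal's identifier kept its label. Animals are the replicates. The study states that litter is nested within perinatal treatment. The number before the hyphen in an animal's name was used as a block in an alternative.

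Regions took the highest −log10 p of their overlapping peaks, were ranked within each library from 0 to 100 and fitted in limma 3.58.1 (R 4.3.3) by treatment and sex, separately per brain region, when at least 20% of libraries had a peak. The adjusted p (Benjamini-Hochberg, threshold 0.05) covers all regions tested. The fit was run on simulated PFC ranks, drawn independently per region and library with a known shift. The simulation did not imitate the tied ranks of regions without a peak, list length or libraries that stand apart. It therefore does not show how the fit behaves under these. Genes are those of the nearest protein-coding start site within 100 kb (GENCODE M21), and promoters lie within 1 kb. Marker shares are shares of promoters within 1 kb of 1 of the 10000 strongest peaks. Sequences were read from the reference genome with pysam 0.24.0. Named members were those with most regions per gene, highest in PFC and hippocampus at few hypothalamus peaks, highest in each gene list, extreme in the striatum, nearest to the limits of the rule, and largest in each comparison. Results for some genes are not reported here. The members and gene lists were chosen with earlier results of these data known. Alternatives changed the overlap required, the list length, the filter, the promoter and motif windows, the definition of absence, the consensus list, and terms or libraries in the fit.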

Additional observations from a re-analysis of the deposited data

Results flagged for a closer look

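Treatment groups of at most 10 libraries were tested for a single value far from the rest, on all peaks and on the 10000 strongest. Of these 14 tests 4 found one, and chance alone gives about 1 in 20 when tests are independent. These were not, since both measures describe the same libraries and library 13-1 was found on both. Larger groups, such as hypothalamus SAL-LPS with 11 libraries, were not tested. The hypothalamus SAL-SAL male library 3-2 had 19.35% of the members among its 10000 strongest peaks, and the nearest library of its group had 7.224%. The PFC MOR-SAL male library 13-1 had 0.3427% of the members under a peak and 0.3164% under its 10000 strongest, and the nearest libraries had 54.63% and 22.25%. The PFC SAL-SAL library 9-4 had 9.043% under its 10000 strongest peaks, and the nearest had 25.52%.

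For 8 members the interaction term of limma was called, which compares the response to LPS between perinatal treatments. Gpr22 passed the 20% filter only through SAL-SAL and MOR-LPS, so its call is partly set by the filter. In the hypothalamus these were Gpr22 (60.47, adjusted p = 0.009741), chr18:55814266-55818047 (63.63, adjusted p = 0.03265), chr9:92729991-92733647 (54.18, adjusted p = 0.02867), Ramp1 (53.04, adjusted p = 0.03721), Nudt18 (50.79, adjusted p = 0.04431), Epop (50.19, adjusted p = 0.04431) and Zbtb16 (47.49, adjusted p = 0.04187). Without the 6 hypothalamus libraries that stood apart their limma adjusted p ran from 0.3607 to 0.4924. Without the 1 oligodendrocyte-marked hypothalamus library, Gpr22 and the chr9 member were still called (limma adjusted p = 0.01799 and 0.02917), and the other 5 had limma adjusted p from 0.0697 to 0.1003. In lists of equal length only the chr9 member was called (limma adjusted p = 0.04423, against 0.09674 to 0.1572 for the others), and without the 20% filter 1 member was called. In the striatum it was Nr1d1 (47.15, limma adjusted p = 0.01379, 0.08171 in lists of equal length and 0.1815 without the oligodendrocyte-marked libraries).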

How the results depend on the processing

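Counts of called members depended on the settings in all 4 brain regions, with few calls under any setting in PFC and hippocampus. No called difference of a named member changed its sign, and the cause of the changes was not tested. Values follow the order MOR-SAL against SAL-SAL, MOR-LPS against SAL-LPS, SAL-LPS against SAL-SAL, MOR-LPS against MOR-SAL and interaction where 5 are given. In lists of equal length limma called 0, 1, 0, 7 and 1 members in the hypothalamus and 0, 1, 0, 1 and 0 in the striatum. Without the 20% filter it called 4 for SAL-LPS against SAL-SAL in the hippocampus, and 0 for MOR-SAL against SAL-SAL and 1 for the interaction in the hypothalamus. With log10 of the number of peaks as a term, the hypothalamus gave 36 for MOR-LPS against SAL-LPS, 75 for MOR-LPS against MOR-SAL and 24 for the interaction, and the striatum 19 for MOR-LPS against MOR-SAL and 4 for the interaction. With peaks overlapping by 50%, or on the striatum's own list, the striatum gave 0 for MOR-SAL against SAL-SAL. Its interaction gave 0 and 2, and MOR-LPS against MOR-SAL gave 5 on its own list.

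The number before the hyphen was taken as a replicate block. It changed the count to 24 (hypothalamus) and 31 (striatum) for MOR-LPS against SAL-LPS and to 4 for the striatum interaction, and no call of a named member was lost. The correlation within blocks was 0.0336 in PFC, -0.015 in the hippocampus, 0.0182 in the striatum and -0.0215 in the hypothalamus.

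The following were chosen after seeing the data. Without the 6 hypothalamus libraries the counts were 0, 0, 3, 0 and 0, a change that is partly built in, since the members themselves set these libraries apart. With a tag read from the peak names as a term, the hypothalamus gave 5 for MOR-LPS against SAL-LPS and 7 for SAL-LPS against SAL-SAL. Libraries without a tag formed 1 level, and the labels do not say what the tag stands for. With oligodendrocyte and astrocyte shares as terms, PFC gave 1 for SAL-LPS against SAL-SAL, the hypothalamus 0 for MOR-LPS against SAL-LPS, 9 for SAL-LPS against SAL-SAL, 8 for MOR-LPS against MOR-SAL and 2 for the interaction, and the striatum 0 for MOR-LPS against SAL-LPS and 2 for MOR-LPS against MOR-SAL. Without oligodendrocyte-marked libraries the striatum gave 0 in all 5 and the hypothalamus, where this left out 1 SAL-SAL library, 1, 18, 7, 43 and 3. With start sites within 20 kb, 12.9% of axon guidance regions were members.

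Of descriptions, the rule would choose 984 PFC regions if absence meant peaks in under 20% of hypothalamus libraries. These were counted whether or not they overlapped a region of the hypothalamus list, so not all are members. A striatum region covered 50% or more of 77.04% of the members, and 22.25% were at promoters within 2.5 kb. The share of members with a peak among the 10000 strongest was 28.8% in PFC, 28.56% in the hippocampus, 20.17% in the striatum and 8.526% in the hypothalamus, and with −log10 q of 5 or more 49%, 34.99% and 15.02% in the last 3. In 300 bp windows, motif shares fell to 24.86% (CAGATG), 17.72% (CAGCTG), 16.82% (NFI), 7.092% (homeodomain), 6.064% (AP-1), 4.166% (forkhead), 4.113% (NKX2, and likewise TCF and LEF), 2.294% (ROR), 1.503% (POU), 1.476% (T-box), 1.239% (MEF2), 0.4746% (CRE), 0.3955% (RFX) and 0.1582% (EGR).

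Peak lists hold no read counts, so signal under the calling threshold is not seen, and a region without a peak in a short list is not shown to lack the mark.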

Other observations

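List length and members did not go together in every brain region. The longest striatum list, of a MOR-LPS library with 109977 peaks, held 74.4% of the members under any peak and 9.57% under its 10000 strongest, and it was 1 of the oligodendrocyte-marked libraries. The longest hypothalamus list, of a MOR-LPS library with 135368 peaks, held 94.36% and 19.48% and was 1 of the 6 that stood apart. The shortest PFC list was that of the MOR-SAL library 13-1, with 11306 peaks, whereas the shortest hippocampus list, with 13021 peaks, held 26.65% and 21.33%.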
